A study of Mus musculus with 25 samples.

Results

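The genes of hepcidin and iron handling followed here in mouse liver were the hepcidin genes Hamp and Hamp2, the ligand gene Bmp6, the signalling targets Id1 and Smad7, and Tfr2, Hfe, Tfrc, Trf and Slc40a1, which sense or carry iron. They were chosen by symbol as a fixed set of 10 of the 56980 genes in the count table, and all 10 passed the filter on low counts in both batches. Hamp2 was higher on the FAT-MASH regimen than on normal diet and back near the normal-diet level in the groups that drank 20% mannose. Hamp itself showed no change between FAT-MASH and normal diet that passed the test. It was lower than on normal diet in the regimen groups with 5% or 20% mannose given throughout. Id1 was higher on the regimen and higher still with 5% or 20% mannose given throughout and with 20% given late. Tfr2 was lower in those same mannose groups, and Tfrc was lower on the regimen and higher again with 20% mannose. Slc40a1 was higher on the regimen. Calls of Id1, Tfrc and Slc40a1 on the regimen were lost without certain single libraries. So were those of Id1 and Tfr2 with 5% given throughout against FAT-MASH, and that of Hamp in this group against normal diet.

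Poly-A RNA was sequenced from liver of 25 C57BL/6J males in 8 groups; the mice were 8 weeks old at the start. FAT-MASH is a 12-week mouse regimen for fatty liver disease with inflammation and fibrosis; mice ate chow high in fat, sucrose and cholesterol, drank water with fructose and glucose, and were injected into the abdomen with carbon tetrachloride (CCl4), which injures the liver, once a week. Normal-diet mice ate standard chow with plain drinking water. Mannose, a sugar, was dissolved in the drinking water at 5% or 20%, for all 12 weeks (called prevention) or for the final 6 weeks only (called therapy). The batch dated earlier in the labels held 6 groups of 3 mice: normal diet, FAT-MASH alone, 5% and 20% prevention, and 5% and 20% therapy, the last 4 all on the regimen. The batch dated later held normal-diet mice only: 2 without mannose, 2 with 5% and 3 with 20%, each for 12 weeks. Chow, sugar water and CCl4 came together, so their parts cannot be told apart. Cages of the individual mice are not given, so p-values measure the spread between these samples.

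Hepcidin is a peptide hormone made mainly by hepatocytes that binds the iron exporter ferroportin (Slc40a1) and removes it from the cell surface, which lowers iron release into blood. Its transcription is driven by bone morphogenetic proteins (BMPs), chiefly BMP6 from liver endothelial cells, through SMAD proteins, with HFE and transferrin receptor 2 relaying how much iron transferrin carries. Inflammation drives it through interleukin-6 and STAT3. Mice carry a second gene, Hamp2, whose product is not known to control iron in the way hepcidin does.

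The 2 hepcidin genes lie 17686 bases apart on the minus strand of chromosome 7 (GRCm39; Hamp at chr7:30641793-30643457, Hamp2 at chr7:30621797-30624106). Their upstream sequences, which are nearly the same, are printed for comparison. On FAT-MASH Hamp2 was called higher than on normal diet and Hamp was not called. A difference in response between the 2 genes, and any part of sequence in it, was not tested. Each run is the 250 bases before the gene's start on its own strand, from RefSeq on build GRCm38.p6 (chr7:30944030-30944279 for Hamp and chr7:30924182-30924431 for Hamp2, minus strand). Capitals mark the letters GGCGCC of a BMP response element described for Hamp, or the segment aligned to it. The capitals after them are the letters TTCNNNGAA of a STAT site.

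Hamp: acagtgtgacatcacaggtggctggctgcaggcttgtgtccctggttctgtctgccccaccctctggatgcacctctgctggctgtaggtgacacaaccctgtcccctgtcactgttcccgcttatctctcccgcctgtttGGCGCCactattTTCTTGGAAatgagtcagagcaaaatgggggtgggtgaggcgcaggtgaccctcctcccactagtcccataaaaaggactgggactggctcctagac

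Hamp2: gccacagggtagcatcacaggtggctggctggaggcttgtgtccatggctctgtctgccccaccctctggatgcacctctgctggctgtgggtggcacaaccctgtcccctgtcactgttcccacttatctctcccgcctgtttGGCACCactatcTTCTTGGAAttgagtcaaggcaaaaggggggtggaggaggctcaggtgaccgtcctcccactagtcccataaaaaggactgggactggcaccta

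Aligned to each other, the windows matched at 227 bases and differed at 20, an identity of 91.9%. GGCGCC started 109 bases before the start of Hamp. The aligned segment of Hamp2, 106 bases before its start, read GGCACC and differed by G4A, counted from 1 at the segment's 5′ end. The segment TTCTTGGAA was in both windows, 97 and 94 bases before the starts, and it did not overlap the first. Searched on both strands, GGCGCC was in 9.59% of 32851 promoter windows of this length and TTCNNNGAA in 7.02%. Windows were matched for 6 members, all but Id1, Smad7, Slc40a1 and Trf: GGCGCC was in Hamp and in 1 of 2 Tfrc windows, TTCNNNGAA in Hamp and Hamp2. These are matches of letters, not measured binding.

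Total counts ran from 31298299 to 56010646 for first-batch libraries and from 35971380 to 49752882 for second-batch ones. Each of the 12 hepatocyte markers had counts in every group, with summed levels of 75040 to 130891 CPM (the count's share of the library total, scaled by the trimmed mean of M-values within a batch). Per kilobase of gene length (TPM), the order of median levels over all 25 libraries was Trf, Hamp, Tfr2, Slc40a1, Hfe, Id1, Hamp2, Tfrc, Smad7 and Bmp6. Trf (8864 to 13268 TPM), Hamp (1387 to 6038) and Tfr2 (178 to 266) did not overlap each other or the rest. Slc40a1 (26.2 to 66.9 TPM) and Hfe (33.6 to 50.4) overlapped, as did Id1, Hamp2, Tfrc and Smad7, whose medians ran from 27.9 down to 9.78. Bmp6, at 1.64 to 4.96 TPM, was lowest.

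Hamp, the hormone's gene, stood at 696, 473 and 450 CPM in the normal-diet libraries of the first batch. FAT-MASH libraries held 364, 412 and 379 CPM, all below normal diet but close to its lower members. The log2 fold change was -0.49 ± 0.24 (SE) and did not pass the test (adjusted p = 0.202, edgeR quasi-likelihood test, Benjamini-Hochberg over all genes). Libraries of 5% prevention held 304, 360 and 325 CPM, and those of 20% prevention 211, 324 and 295. All 6 lay below all FAT-MASH libraries, with log2 fold changes of -0.22 ± 0.24 (adjusted p = 0.723) and -0.48 ± 0.24 (adjusted p = 0.206). Therapy libraries were more scattered, at 454, 350 and 676 CPM with 5% and 494, 491 and 261 with 20%. They overlapped FAT-MASH, with differences of 0.36 ± 0.24 (adjusted p = 0.893) and 0.11 ± 0.24 (adjusted p = 0.805).

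Against normal diet, Hamp was lower in both prevention groups, which passed the test: by -0.71 ± 0.24 on the log2 scale with 5% (adjusted p = 0.0388) and by -0.96 ± 0.24 with 20% (adjusted p = 0.00434). The 5% result was lost without normal diet replicate 1, the highest library (-0.50, adjusted p = 0.184), and without 5% prevention replicate 1, 2 or 3 (adjusted p = 0.113, 0.0631 and 0.081), and with library totals as the only scaling (-0.53, adjusted p = 0.114). Second-batch libraries held Hamp at 965 and 541 CPM on normal diet, 1062 and 791 with 5% mannose, and 377, 349 and 470 with 20%. The 20% libraries lay below the other 4, but the difference from normal diet, -0.92 ± 0.22, did not pass (adjusted p = 0.479). Without normal diet replicate 5 it was -1.27, resting then on 1 untreated library, replicate 4, the higher at 965 CPM.

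Hamp2, the second hepcidin gene, was 3.37, 3.08 and 2.52 CPM on normal diet in the first batch. On FAT-MASH it was 23.9, 28.4 and 15.6 CPM, far above normal diet in each library. It rose by 2.91 ± 0.50 on the log2 scale (adjusted p = 0.000561, edgeR). With 5% mannose it was 13.4, 23.8 and 12.3 CPM in prevention and 44.0, 8.24 and 16.0 in therapy, both overlapping FAT-MASH. With 20% it was 3.58, 4.29 and 4.29 CPM in prevention and 4.24, 3.02 and 1.13 in therapy, all 6 below every FAT-MASH library. The log2 fold changes against FAT-MASH were -2.48 ± 0.48 for 20% prevention (adjusted p = 0.00147) and -3.02 ± 0.49 for 20% therapy (adjusted p = 0.00017). All of these calls held without any 1 library.

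The dose groups could also be set against each other. Hamp2 was lower with 20% than with 5% therapy, by -3.02 ± 0.49 (adjusted p = 0.00024). Without 5% therapy replicate 1, which at 44.0 CPM was the highest of all 25 libraries, the difference was -2.13 and still passed. In prevention the same contrast was -2.02 ± 0.47 and did not pass (adjusted p = 0.0612), although the 2 groups did not overlap. Against normal diet, Hamp2 was higher with 5% prevention (2.45 ± 0.49, adjusted p = 0.0013) and with 5% therapy (2.91 ± 0.50, adjusted p = 0.000581, or 2.01 without 5% therapy replicate 1). Second-batch levels of Hamp2 were 4.39 and 4.69 CPM on normal diet, 5.87 and 4.00 with 5%, and 0.834, 2.69 and 3.03 with 20% (-1.05 ± 0.45, adjusted p = 0.849).

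**Figure D1:**
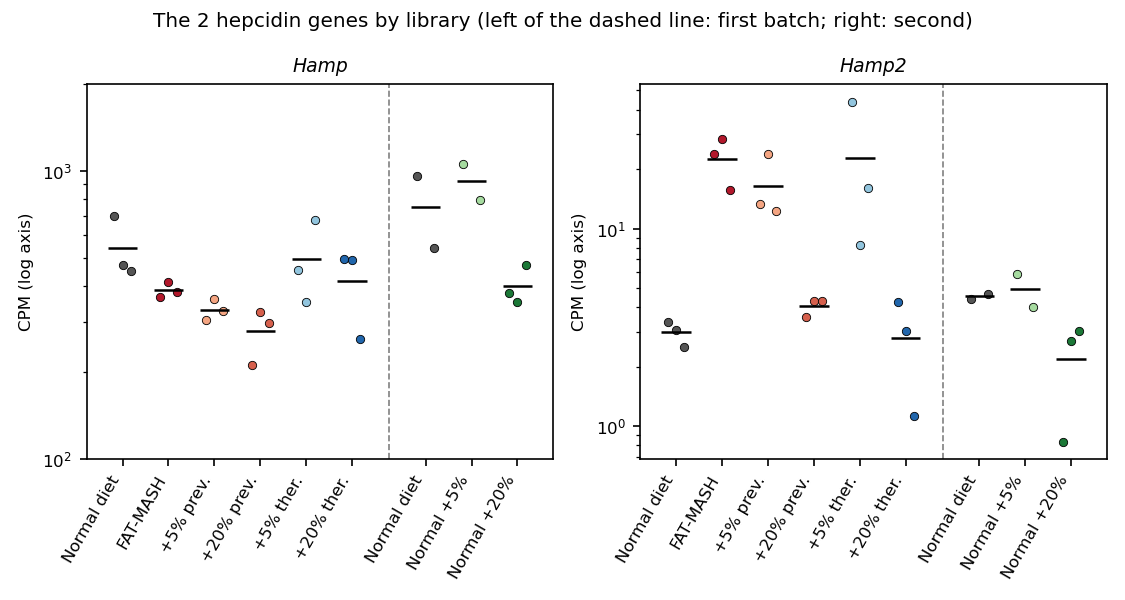
Hamp (left) and Hamp2 (right) in CPM on log axes, 1 point per library with a line at the group mean; prev. is prevention and ther. therapy. Hamp2 is 15.6 to 28.4 CPM in FAT-MASH and 1.13 to 4.29 CPM in the 20% mannose groups of the first batch, while Hamp stays within 211 to 696 CPM there.

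Hamp2 made up a small and shifting part of hepcidin transcripts. Per length, its level was 0.341% to 0.458% of that of Hamp on normal diet and 2.90% to 4.84% on FAT-MASH. The share was 2.66% to 4.64% in 5% prevention, 1.65% to 6.80% in 5% therapy, 0.930% to 1.19% in 20% prevention and 0.303% to 0.604% in 20% therapy. Second-batch shares ran from 0.156% to 0.610%. The 2 transcripts are near copies, 94.6% identical over 410 aligned bases, and 16.6% of the 50-base windows of Hamp also occur in Hamp2, but 0 of its 311 windows of 100 bases do. By the counter's defaults, reads that fit both were dropped, so levels of both are uncertain, and how many reads were misplaced between them was not tested. Hamp2 is also known from pancreas, and 5 or 6 of 9 acinar marker genes were at 0 counts in each first-batch group. Their summed level was 40.4 to 68.2 CPM on normal diet and 12.9 to 16.6 CPM on FAT-MASH, nearly all of it from Cela1 (51.0 and 14.2 CPM on average). The part of pancreatic tissue in the Hamp2 values was not tested.

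Bmp6, the ligand, had the lowest median level per length of the 10. It was 9.01, 7.89 and 4.90 CPM on normal diet and 4.54, 4.20 and 5.83 on FAT-MASH, and the groups overlapped (log2 fold change -0.58 ± 0.26, adjusted p = 0.151, edgeR). The mannose groups of the first batch spanned 2.63 to 7.30 CPM. One comparison passed: 5% prevention, at 4.93, 4.89 and 2.63 CPM, was lower than normal diet by -0.81 ± 0.26 (adjusted p = 0.0311). It was lost without normal diet replicates 1 or 2, or else 5% prevention replicate 3 (adjusted p = 0.134, 0.0843 and 0.128), with only the groups compared in the fit (0.0667), and with library totals as the only scaling (-0.63, adjusted p = 0.101). Second-batch libraries ran from 4.33 to 6.85 CPM and overlapped between groups. The gene overlaps Txndc5 on the opposite strand, which had 233324 counts in all against 5952 for Bmp6, and the counting did not use strand. Markers of sinusoidal endothelium, where BMP6 is made, were summed at 462 to 513 CPM on normal diet and 544 to 622 on FAT-MASH. Of the 12, 2 were higher and none lower, beside 13.7% of all genes called in that comparison.

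Id1, a transcriptional inhibitor and a direct target of SMAD1/5 signalling, was 5.86, 4.81 and 6.08 CPM on normal diet in the first batch and 9.73, 16.1 and 10.3 on FAT-MASH. It rose by 1.11 ± 0.26 on the log2 scale (adjusted p = 0.00711, edgeR), with no overlap. Without FAT-MASH replicate 2, the highest, the difference was 0.83 and the adjusted p 0.0525. Libraries of 5% prevention held 29.0, 24.0 and 25.3 CPM, those of 20% prevention 18.7, 22.8 and 34.5, and those of 20% therapy 36.3, 21.1 and 28.2. Each of these 9 lay above all FAT-MASH libraries. The log2 fold changes against FAT-MASH were 1.12 ± 0.25 (adjusted p = 0.0241), 1.08 ± 0.25 (adjusted p = 0.006) and 1.24 ± 0.25 (adjusted p = 0.00121). The 5% prevention call was lost without FAT-MASH replicates 1 or 3, or else 5% prevention replicate 1 (adjusted p = 0.121, 0.0874 and 0.107) and in the fit of all 25 libraries (0.0621). Libraries of 5% therapy, at 11.3, 12.8 and 19.9 CPM, overlapped FAT-MASH, and 20% therapy was higher than 5% therapy by 0.95 ± 0.25 (adjusted p = 0.011). That call was lost without 5% therapy replicate 1 or 20% therapy replicate 1 (adjusted p = 0.0649 and 0.0787).

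Against normal diet, Id1 was 2.23 ± 0.26 higher in 5% prevention, 2.19 ± 0.26 in 20% prevention, 1.40 ± 0.26 in 5% therapy and 2.35 ± 0.26 in 20% therapy. The adjusted p-values ran from 1.16e-06 to 0.00128. In the second batch the order differed: the untreated normal-diet libraries held 29.0 and 9.42 CPM, those with 5% mannose 5.00 and 3.45, and those with 20% mannose 6.09, 6.70 and 4.94. The differences of -2.18 ± 0.43 for 5% and -1.70 ± 0.37 for 20% did not pass (adjusted p = 0.444 and 0.383, edgeR). Without normal diet replicate 5 they were -2.77 and -2.29, with replicate 4, the higher at 29.0 CPM, as the only untreated library.

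Smad7, an inhibitor of the same pathway and also one of its targets, was 11.4, 11.4 and 12.97 CPM on normal diet and 14.999, 16.9 and 14.4 on FAT-MASH. The groups did not overlap, but the difference of 0.37 ± 0.16 did not pass the test (adjusted p = 0.145, edgeR). It was 18.7, 22.3 and 21.3 CPM in 5% prevention, 21.2, 24.0 and 32.7 in 20% prevention, 13.9, 17.5 and 21.6 in 5% therapy and 21.1, 19.7 and 22.5 in 20% therapy. All but 5% therapy lay wholly above FAT-MASH. The rise with 20% prevention, 0.75 ± 0.16, passed (adjusted p = 0.0032). The differences with 5% prevention (0.43 ± 0.16, adjusted p = 0.188) and 20% therapy (0.45 ± 0.16, adjusted p = 0.0527) did not, although DESeq2 gave an adjusted p of 0.039 for 20% therapy. Against normal diet all 4 mannose groups were higher, by 0.80 ± 0.16, 1.12 ± 0.16, 0.57 ± 0.16 and 0.82 ± 0.16 in the order above (adjusted p = 0.00153, 3.18e-05, 0.0251 and 0.00053). The third, 5% therapy, was lost without normal diet replicate 1 or 2 (adjusted p = 0.0844 and 0.0858) or 5% therapy replicate 2 or 3 (adjusted p = 0.0672 and 0.134), and with only the groups compared in the fit (0.063).

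**Figure D2:**
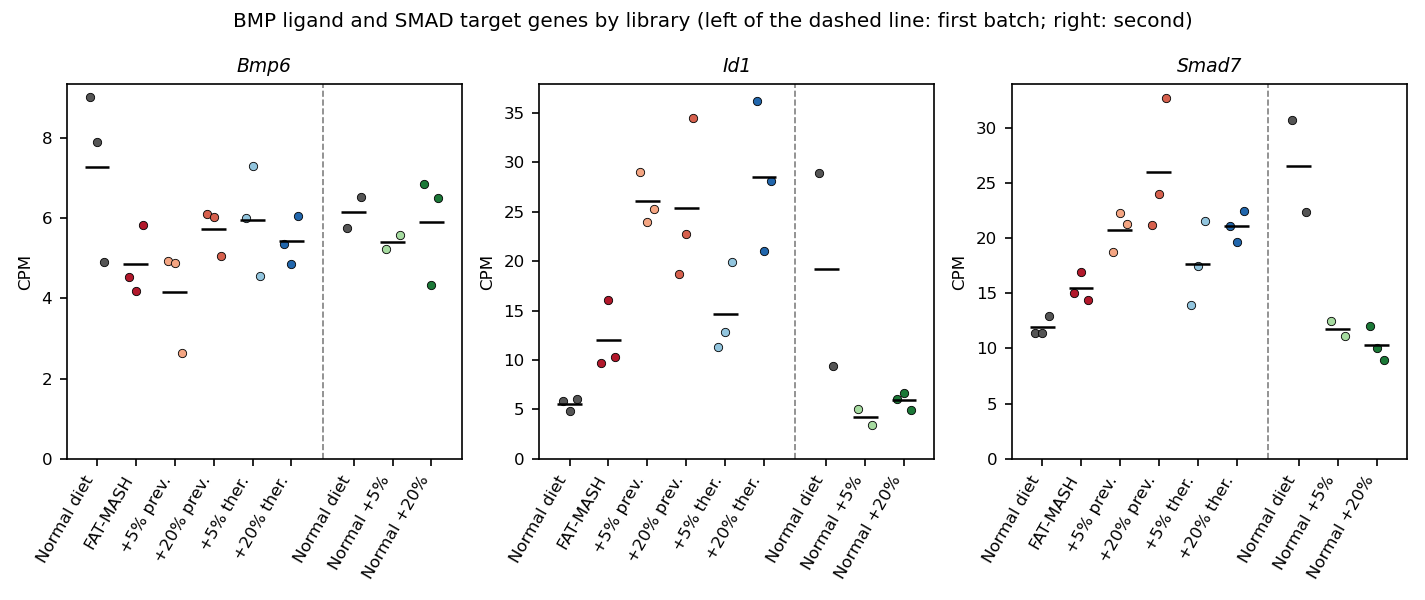
Bmp6, Id1 and Smad7 in CPM, 1 point per library with a line at the group mean; axes start at 0. Id1 and Smad7 are lowest in the first-batch normal-diet group among first-batch groups, and the 2 untreated normal-diet libraries of the second batch (Id1 29.0 and 9.42 CPM, Smad7 30.7 and 22.4 CPM) stand above the 5 with mannose.

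Smad7 in the second batch was 30.7 and 22.4 CPM on normal diet, 12.5 and 11.1 with 5% mannose, and 12.0, 10.03 and 8.97 with 20%. The untreated libraries were above all 5 others, by -1.17 ± 0.21 for 5% against none (adjusted p = 0.381, edgeR) and -1.36 ± 0.18 for 20% against none (adjusted p = 0.056). Without normal diet replicate 5 these were -1.38 and -1.57, with replicate 4, the higher at 30.7 CPM, as the only untreated library. The difference between the mannose effect on FAT-MASH (prevention) and that on normal diet passed for both genes. For Id1 it was 3.29 ± 0.50 with 5% (adjusted p = 0.0046) and 2.77 ± 0.46 with 20% (adjusted p = 0.000868). For Smad7 it was 1.58 ± 0.27 (adjusted p = 0.00794) and 2.11 ± 0.25 (adjusted p = 5.37e-05). Without normal diet replicate 4 the Id1 values fell to 2.27 and 1.75 and still passed, and without replicate 5 they were 3.90 and 3.37. The 5% value for Smad7 was then 1.35 without replicate 4 (adjusted p = 0.0609). These differences rest on the 2 untreated second-batch libraries, whose Id1 and Smad7 levels lay above those of the 3 untreated first-batch libraries.

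Cell cycle genes and markers of bile duct cells moved beside Id1 and Smad7. All 12 cell cycle genes were higher in 20% prevention and in 20% therapy than in FAT-MASH, and 6 in 5% prevention. Their summed level was 9.93 to 17.8 CPM on normal diet, 12.1 to 17.6 on FAT-MASH, 34.4 to 58.8 in 5% prevention, 104 to 121 in 20% prevention, 14.4 to 27.6 in 5% therapy and 146 to 466 in 20% therapy. Of 8 bile duct markers, 1, 4 and 5 were higher in 5% prevention, 20% prevention and 20% therapy (2.27%, 15.1% and 21.4% of all genes called). None was at 0 in a first-batch group, and their sum ran from 121 to 138 CPM on FAT-MASH and from 185 to 783 in 20% therapy. In the second batch the cell cycle sum was 8.15 to 8.73 CPM in untreated libraries, 5.75 to 6.89 with 5% mannose and 4.88 to 8.97 with 20%. The part of these cells in the values of Id1 and Smad7 was not tested.

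Tfr2, the hepatocyte receptor that senses iron-loaded transferrin, varied little within groups. It was 536, 535 and 518 CPM on normal diet and 449, 456 and 428 on FAT-MASH, without overlap, and the difference of -0.25 ± 0.09 did not pass (adjusted p = 0.0683, edgeR). DESeq2 gave it an adjusted p of 0.0188. Libraries held 330, 312 and 342 CPM in 5% prevention, 326, 314 and 293 in 20% prevention, 441, 376 and 455 in 5% therapy and 250, 279 and 275 in 20% therapy. All but 5% therapy lay below FAT-MASH. The falls against FAT-MASH were -0.44 ± 0.09 for 5% prevention (adjusted p = 0.0137), -0.51 ± 0.09 for 20% prevention (adjusted p = 0.000718) and -0.73 ± 0.09 for 20% therapy (adjusted p = 1e-05). The first was lost without FAT-MASH replicates 1 or 2, or else 5% prevention replicate 1 (adjusted p = 0.0565, 0.0567 and 0.0649) and with only the groups compared in the fit (0.0525). In therapy, 20% was lower than 5% by -0.66 ± 0.09 (adjusted p = 4.74e-05).

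Against normal diet, Tfr2 was lower in all 4 mannose groups, from -0.32 ± 0.09 in 5% therapy (adjusted p = 0.0223) to -0.98 ± 0.09 in 20% therapy (adjusted p = 1.11e-07), with -0.69 ± 0.09 and -0.77 ± 0.09 in 5% and 20% prevention. The 5% therapy call was lost without normal diet replicate 1, 2 or 3 (adjusted p = 0.0676, 0.0678 and 0.0504) or 5% therapy replicate 2 (adjusted p = 0.134), and with library totals alone (adjusted p = 0.0517), only the groups compared (0.0645) or no filter (0.0661). In the second batch Tfr2 spanned 372 to 441 CPM over all 7 libraries, and no difference passed. The effect of 20% mannose differed between the diets by -0.55 ± 0.13 (adjusted p = 0.0149), which was lost without normal diet replicate 4 (adjusted p = 0.0718) and with library totals as the only scaling (-0.33, adjusted p = 0.083).

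Several hepatocyte markers fell beside Tfr2 in the 20% mannose groups on the regimen. Against FAT-MASH, 6 of 12 were lower in 20% prevention, with a median log2 fold change of -0.47 over the 12, and 8 of 12 in 20% therapy, with a median of -0.53. All genes had medians of 0.01 and 0.00, and 15.1% and 21.4% of them were called, in either direction. The summed level was 105562 to 117425 CPM on FAT-MASH, most of it from Alb (70430 CPM on average). It was 107546 to 111806 in 5% prevention, within the FAT-MASH range, with Alb at 75084 CPM on average. The only marker called there was Asgr1, lower than on FAT-MASH by -0.46 ± 0.11 (adjusted p = 0.0264, edgeR), beside 2.27% of all genes. Tfr2 was also lower in that group. The sum was 88872 to 109999 in 20% prevention and 75040 to 83114 in 20% therapy. Fah, an enzyme of tyrosine breakdown, fell by 0.99 on the log2 scale in 20% therapy and Apoa2, an apolipoprotein, by 1.07. Fewer hepatocytes and less RNA per hepatocyte cannot be told apart in bulk tissue, and their part in the Tfr2 values was not tested. With library totals as the only scaling Tfr2 was still lower in 20% therapy than in FAT-MASH, by -0.43.

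Hfe and Trf, also made by hepatocytes, kept to narrow ranges. Hfe, the partner of the transferrin receptors in iron sensing, was 52.1 to 73.1 CPM in all 25 libraries. Its 1 call was 20% therapy against normal diet, -0.26 ± 0.10 (adjusted p = 0.0465, edgeR), which was lost without any single library of either group (adjusted p = 0.0502 to 0.194) or without the filter on low counts (0.131), and turned to 0.12 with library totals as the only scaling. Trf encodes transferrin, the iron carrier of plasma. It was 11519 to 16335 CPM, the most abundant member in every library, and passed in no comparison by edgeR.

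Tfrc, the receptor that takes up transferrin and whose mRNA is stabilised when cells lack iron, was 30.7, 40.0 and 40.2 CPM on normal diet and 23.5, 15.1 and 21.6 on FAT-MASH. The groups did not overlap, and it fell by 0.88 on the log2 scale (-0.88 ± 0.24, adjusted p = 0.0187, edgeR). The call was lost without normal diet replicates 2 or 3, or else FAT-MASH replicate 2 (adjusted p = 0.0565, 0.0584 and 0.0834) and in the fit of all 25 libraries (adjusted p = 0.0799). Tfrc was 31.3, 24.3 and 43.8 CPM in 5% prevention, 63.3, 41.3 and 31.0 in 20% prevention, 27.1, 24.7 and 19.8 in 5% therapy and 51.2, 37.7 and 42.2 in 20% therapy. Only 5% therapy overlapped FAT-MASH, and the other mannose groups lay above it. It rose by 1.17 ± 0.24 with 20% prevention (adjusted p = 0.00238) and 1.12 ± 0.24 with 20% therapy (adjusted p = 0.00198), while 0.72 ± 0.24 with 5% prevention did not pass (adjusted p = 0.128). The contrast of 20% with 5% therapy was 0.88 ± 0.24 (adjusted p = 0.0141), lost without 5% therapy replicate 3 or 20% therapy replicate 1 (adjusted p = 0.0736 and 0.0723) and in the fit of all 25 libraries (0.0736).

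No mannose group differed from normal diet in Tfrc by a change that passed. In the second batch it scattered from 14.0 to 48.2 CPM, both within the 20% group. The effect of 20% mannose differed between diets by 1.58 ± 0.48, which did not pass (adjusted p = 0.0544, edgeR) but did without 20% prevention replicate 3 (1.79, adjusted p = 0.0345) or normal diet 20% replicate 2 (2.25, adjusted p = 0.00242). The cell cycle sums given above were also high where Tfrc was high in the regimen groups. On first-batch normal diet the sum was 9.93 to 17.8 CPM and Tfrc 30.7 to 40.2 CPM. Red cell markers, which include the haemoglobin genes, were summed at 457 to 553 CPM on normal diet, 606 to 708 on FAT-MASH, 338 to 516 in 20% prevention and 285 to 535 in 20% therapy. The part of either in the Tfrc values was not tested.

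Slc40a1, ferroportin, is the only known exporter of iron and is made by hepatocytes and most strongly by macrophages. It was 152, 117 and 115 CPM on normal diet and 218, 184 and 241 on FAT-MASH. It rose by 0.74 ± 0.18 (adjusted p = 0.00897, edgeR), without overlap, and the call was lost without normal diet replicates 2 or 3, or else FAT-MASH replicate 3 (adjusted p = 0.0521, 0.0552 and 0.0554). Libraries held 146, 210 and 128 CPM in 5% prevention, 195, 212 and 145 in 20% prevention, 263, 229 and 195 in 5% therapy and 152, 159 and 125 in 20% therapy. Only 20% therapy lay wholly below FAT-MASH, by -0.56 ± 0.18 (adjusted p = 0.0305). That call was lost without FAT-MASH replicate 1 or 3 (adjusted p = 0.0772 and 0.124), without 20% therapy replicate 1 or 3 (adjusted p = 0.0625 and 0.145), and with library totals as the only scaling (-0.26, adjusted p = 0.278).

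Between the therapy doses Slc40a1 was lower with 20% by -0.66 ± 0.18 (adjusted p = 0.0149), lost without 5% therapy replicate 1 or 20% therapy replicate 3 (adjusted p = 0.0799 and 0.0803) and with library totals alone (-0.39, adjusted p = 0.111). Against normal diet it was higher in 5% therapy (0.84 ± 0.18, adjusted p = 0.00428, edgeR) and in 20% prevention (0.52 ± 0.18, adjusted p = 0.0312). The latter was lost without normal diet replicates 2 or 3, or else 20% prevention replicate 1 or 2 (adjusted p = 0.0998 to 0.136), and those groups overlapped. Second-batch libraries held 173 and 146 CPM without mannose, 137 and 111 with 5% and 129, 126 and 104 with 20%. The 2 untreated libraries were above the rest, but neither difference passed (-0.36 ± 0.15 and -0.41 ± 0.14, adjusted p = 0.869 and 0.756).

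Kupffer cell markers rose beside Slc40a1 on the regimen. Against normal diet, 8 of 11 were higher and none lower (13.7% of all genes called). Their summed levels were 677 to 1102 CPM, against 281 to 379 on normal diet. In 20% therapy their sum was 555 to 1289 CPM. There 1 of 11, Marco, was higher and none lower than on FAT-MASH (21.4% of all genes called). Marco averaged 66.4 CPM in 20% therapy against 12.2 on FAT-MASH. Uncalled markers went both ways on average, as with Clec4f (114 against 152 CPM) and C1qa (102 against 80.9 CPM). None of the 11 was at 0 in any group. Recruited macrophage markers were higher on FAT-MASH than on normal diet for 6 of 10, beside the same 13.7% of all genes. The part of these cells in the Slc40a1 values was not tested.

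**Figure D3:**
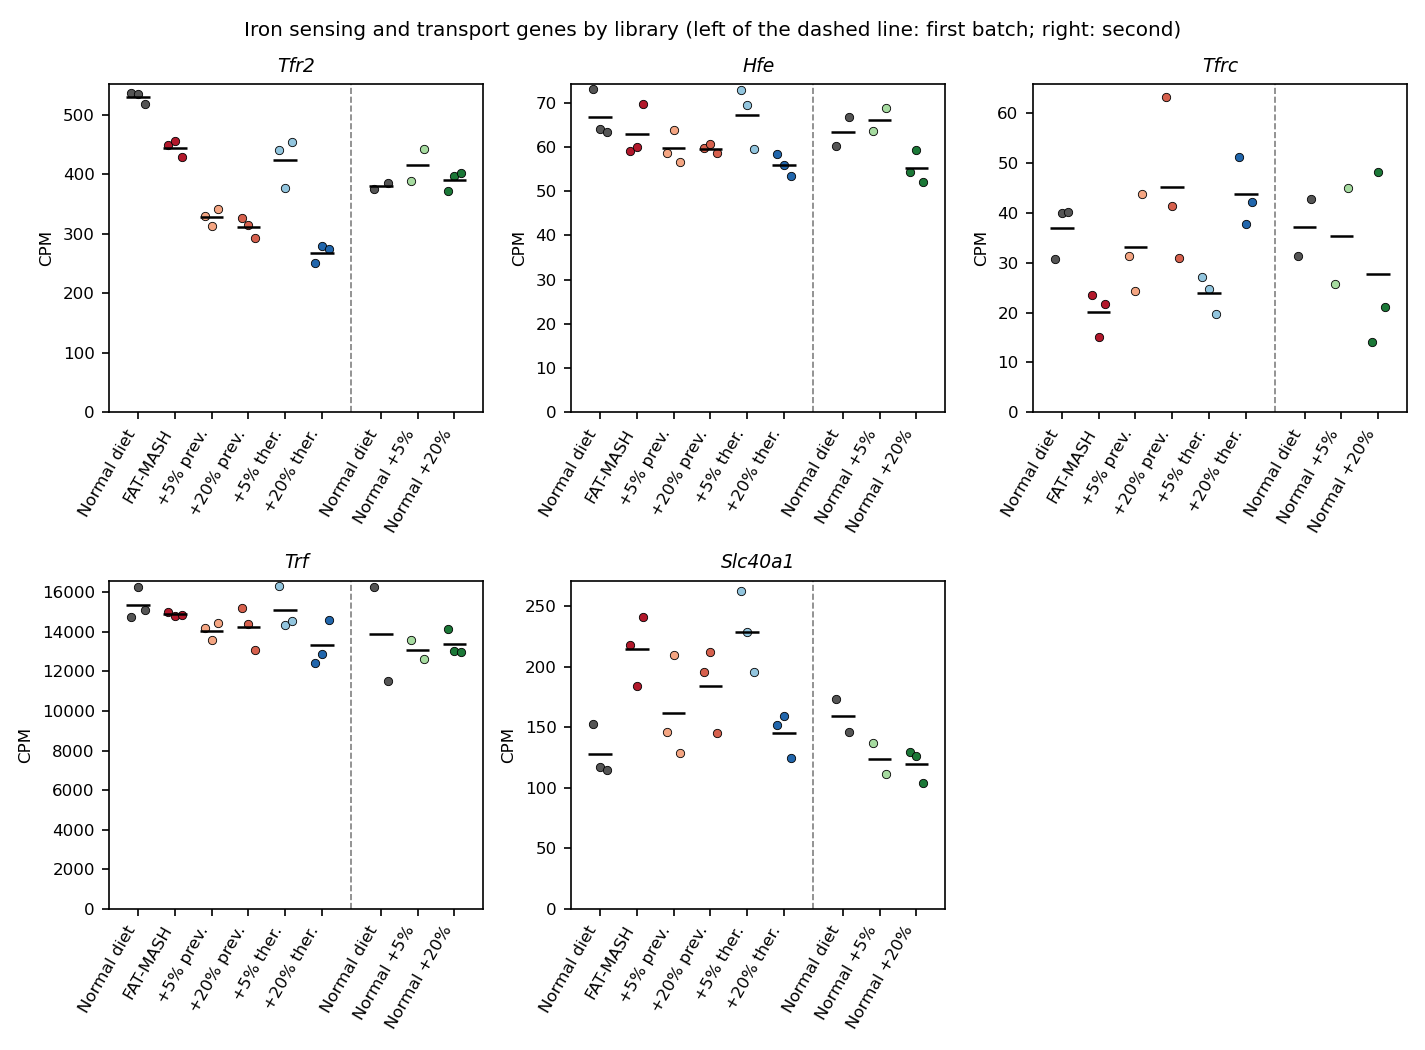
Tfr2, Hfe, Tfrc, Trf and Slc40a1 in CPM, 1 point per library with a line at the group mean; axes start at 0. Tfr2 runs from 518 to 536 CPM on first-batch normal diet down to 250 to 279 CPM in 20% therapy, and Hfe and Trf stay nearly level.

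Counted over the 10 genes, FAT-MASH against normal diet gave 4 calls, Hamp2, Id1 and Slc40a1 higher and Tfrc lower, beside 13.7% of all 19571 genes tested. Against FAT-MASH, 5% prevention gave 2 calls (2.27% of all genes), 20% prevention 5 (15.1%), 5% therapy 0 (0.0358%) and 20% therapy 5 (21.4%), all by edgeR. For 5% therapy, 0 members had an unadjusted p under 0.05, and DESeq2 and limma voom also called 0. The median log2 fold change of the 10 was -0.07 for FAT-MASH against normal diet, -0.15, -0.07, 0.15 and -0.03 for those 4 in turn, beside 0.03, 0.01, 0.01, -0.01 and 0.00 over all genes. Calls went in both directions in each of these comparisons that had any. Against normal diet there were 6 calls in 5% prevention (22.4% of all genes), 5 in 20% prevention (33.3%), 5 in 5% therapy (12.9%) and 4 in 20% therapy (36.1%).

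Between mannose groups, 20% against 5% therapy gave 5 calls beside 17.7% of all genes. The other such comparisons gave 0 calls by edgeR: 20% against 5% prevention (0.445% of all genes, 1 member at an unadjusted p under 0.05, 1 call by DESeq2 and 0 by limma voom), 5% prevention against 5% therapy (0.194%, 4, 1 and 1) and 20% prevention against 20% therapy (0.0818%, 2, 0 and 0). On normal diet, 5% mannose gave 0 calls (0% of 18462 genes tested) and 20% also 0 (0.00542%). There, 3 and 5 members had an unadjusted p under 0.05, DESeq2 called 2 in each, and limma voom 0 and 1. The mannose effect differed between diets for 2 members with 5% (0.524% of 21373 genes) and for 3 with 20% (5.67%).

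**Figure D4:**
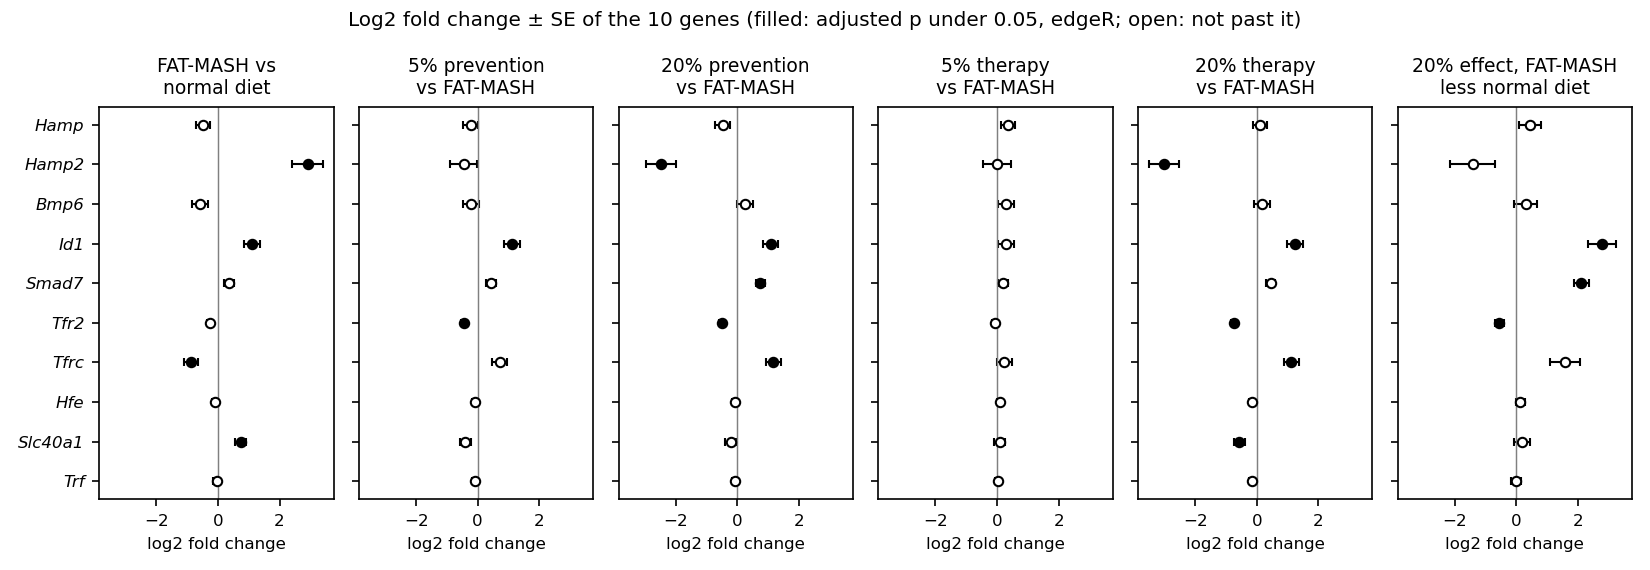
Log2 fold change with its standard error of the 10 genes in 6 comparisons (edgeR); filled points have an adjusted p under 0.05. No point is filled for 5% therapy, and Id1 and Tfr2 are filled on opposite sides of 0 in the 3 other mannose comparisons with FAT-MASH.

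Of 22 tested genes of the wider BMP-SMAD pathway, of 24 listed, 3 were higher and 1 lower on FAT-MASH than on normal diet, where 13.7% of all genes were called. For this and the next lists, the shares of all genes called against FAT-MASH were 2.27% in 5% prevention, 15.1% in 20% prevention and 21.4% in 20% therapy. Atoh8, a transcription factor that raises Hamp transcription, rose by 1.03 ± 0.16 (adjusted p = 0.000223, edgeR), and Fgl1, a liver-secreted BMP antagonist, by 0.72 ± 0.17. With 5% prevention Id3 (1.38 ± 0.29) and Id2 (0.96 ± 0.21), both of the family of Id1, were higher than on FAT-MASH. Both calls were lost without FAT-MASH replicate 1 or 3 and without 5% prevention replicate 1 (adjusted p = 0.0927, 0.0648 and 0.0649 for Id3 and 0.107, 0.0872 and 0.0752 for Id2). With 20% prevention 4 were higher and 2 lower, led by the signal carrier Smad5 (0.44 ± 0.09) and Fgl1 (-0.71 ± 0.17). With 20% therapy 3 were higher and 2 lower. Tmprss6, the protease that cuts the BMP co-receptor hemojuvelin and so restrains Hamp, fell by 0.70 on the log2 scale, while Id3 rose by 1.15 ± 0.29. The effect of 20% mannose differed between the diets for 3 of 24, all more positive on FAT-MASH, beside 5.67% of all genes. Id2 led them (1.37 ± 0.30, or 1.04 with an adjusted p of 0.0889 by edgeR without normal diet replicate 4). Nog and Erfe did not pass the filter on low counts in the first batch.

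Of 17 tested genes of the interleukin-6 and STAT3 route, 5 were higher and 1 lower on FAT-MASH than on normal diet (13.7% of all genes called). Lcn2, an acute-phase protein that binds iron-carrying siderophores, rose by 3.79 ± 0.59 and Il6ra, a receptor subunit, by 1.48 ± 0.24, while Lifr, a receptor subunit for a related cytokine, fell by 1.37. Il6ra was lower than on FAT-MASH in 5% prevention (-1.48 ± 0.24), in 20% therapy (-1.53 ± 0.24) and in 20% prevention (-0.90 ± 0.23). The last call was lost without FAT-MASH replicate 1 or 3 (adjusted p = 0.0586 and 0.0818) and with limma voom (0.0541). In 20% therapy 2 were higher and 6 lower, among them the fibrinogen chains Fgg (-0.80 ± 0.12) and Fgb (-0.71 ± 0.13). The gene of interleukin-6 itself did not pass the filter on low counts in the first batch.

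Of 11 genes of iron storage and sensing, 2 were higher and 1 lower on FAT-MASH than on normal diet (13.7% of all genes called). Nfe2l2, a stress-response factor, rose by 0.84 ± 0.14, and Fbxl5, which marks an iron regulatory protein for breakdown, by 0.52 ± 0.10. Aco1, which encodes another such protein, was lower by -0.38 ± 0.09, a call lost without FAT-MASH replicate 1 (adjusted p = 0.0603, edgeR). The ferritin heavy chain gene Fth1 was 2145 ± 96.2 CPM (SD, n = 3) on FAT-MASH and 2150 ± 103 on normal diet. The light chain gene Ftl1 was 391 ± 62.3 and 372 ± 28.4 CPM, and neither difference passed.

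Of 21 genes that carry iron, haem or haemoglobin, 5 were higher and 1 lower on FAT-MASH than on normal diet (13.7% of all genes called). Steap2, a metal reductase, rose by 1.73 ± 0.19, Slc39a14, an importer of iron not bound to transferrin, by 0.65 ± 0.11, and Flvcr2 by 1.18 ± 0.23. With 20% therapy 4 were higher and 5 lower than on FAT-MASH. Steap4, another reductase, rose by 1.13 ± 0.20, and Lrp1, the receptor that clears haem bound to hemopexin, fell by 0.55 on the log2 scale, a call lost with library totals as the only scaling (-0.25, adjusted p = 0.134). In haem metabolism, 3 of 12 were lower on FAT-MASH than on normal diet (13.7% of all genes called), among them Alad, an early enzyme of haem synthesis (-0.55 ± 0.11). With 20% therapy 4 were lower and 1 higher (21.4% of all genes called), the latter Hmox1, which breaks haem down (0.96 ± 0.24).

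Hamp was compared with other members across the 15 first-batch libraries on the regimen, as 4 relations. None passed: for Bmp6 the Pearson r was -0.17 and Spearman's rho -0.42 (adjusted permutation p = 0.576 and 0.163), for Id1 -0.16 and -0.28 (0.576 and 0.314), and for Smad7 -0.27 and -0.44 (0.576 and 0.163). Without the 2 libraries farthest from the median of that gene, r was -0.47, -0.19 and -0.10. On deviations from the group means r was -0.47 for Bmp6 (rho -0.54), 0.39 for Id1 and 0.32 for Smad7, so the last pair changed sign. Hamp2 fell into separate groups and was compared by deviations only, with r = 0.54 and rho = 0.52. Adjusted permutation p-values on deviations were 0.215 to 0.400 for r.

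The genes whose pattern over the 18 first-batch libraries was most like that of Hamp were Sarnp, Exosc4, Actr8, Psmg3 and Mrps26, with Pearson r of log2 CPM from 0.77 to 0.80. Over the 7 second-batch libraries the same genes had r from -0.54 to 0.55. For Hamp2 they were Abcg5 (0.89), Igfbp3 (0.86), Tnfaip8l1 (0.86), Abcg8 (0.86) and Sh2d4a (0.86). In the second batch Abcg5 and Abcg8, which pair to form a sterol exporter, again had r of 0.76 and 0.78 with Hamp2, and Igfbp3, Tnfaip8l1 and Sh2d4a had r from -0.45 to -0.03. Each r describes libraries of the same batch that differ in group and depth. The part of group differences in these values was not tested. Hamp and Hamp2 had an r of 0.12 over the first batch and 0.74 over the second.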

How the data were processed

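The members and gene lists were chosen with earlier results of these data known. The authors aligned reads with STAR and, per the submitters' processing notes, counted with featureCounts 2.0.6. The header of the deposited table names version 2.0.1 and GENCODE mouse release M31 (GRCm39). Its values are raw counts of the authors, whole numbers for each gene, as deposited. The counting command sets no strand or multiple-mapping option, so defaults apply. Of 56980 genes, 52073 had a symbol. The lowest chi-square per degree of freedom between 2 libraries of a group was 21.2, so none was a duplicate.

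Tests used edgeR 4.0.16 under R 4.3.3 (quasi-likelihood test, TMM, filterByExpr, Benjamini-Hochberg, threshold 0.05): first batch together (18 libraries), second together (7), and all 25 with batch as a term for differences between diets, where batch is carried by normal diet alone. The code was tested on simulated data. Named were all members, up to 4 called genes of each list with the smallest p, and the 5 genes most like Hamp and Hamp2 with a mean of at least 5 CPM. Correlations used 100000 permutations. Alternatives were DESeq2 1.42.0, RLE size factors, library totals, no filter, limma 3.58.1 voom with quality weights, only the groups compared, all 25 libraries, a replicate block, and leaving out each library. Depth limits precision most for Bmp6 (91 to 331 counts per library) and Hamp2 (37 to 1295).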

Additional observations from a re-analysis of the deposited data

Results flagged for a closer look

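Id1 in the 5 untreated normal-diet libraries had 1 far above the others, second-batch replicate 4 at 29.0 CPM, with a gap to the next of 0.767 of the whole range against a limit of 0.71 for 5 samples. It was the only 1 of 20 checks made (10 genes, highest and lowest library), chance flags about 1 in 20 groups, and these 5 libraries span both batches. The effect of mannose differed between the diets, by a test of the difference, for Id1 (3.29 with 5% and 2.77 with 20%, log2 scale), for Smad7 (1.58 with 5% and 2.11 with 20%) and for Tfr2 (-0.55 with 20%). All 5 rest on the same 2 untreated second-batch libraries.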

How the results depend on the processing

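Numbers of members past the threshold moved by over 1.5 times as follows. Without the filter on low counts they were 4 for 5% prevention against FAT-MASH (2 as reported), 2 for 20% against 5% prevention (0), 4 for 5% prevention against 5% therapy (0), 1 for 20% prevention against 20% therapy (0), 2 and 3 for 5% and 20% mannose on normal diet (0 each) and 5 for the difference between diets with 20% (3). DESeq2 gave 1, 1, 2 and 2 for 20% against 5% prevention, 5% prevention against 5% therapy, and 5% and 20% on normal diet. Voom gave 1 for 5% prevention against 5% therapy and 1 for 20% on normal diet, and library totals 1 for the latter. With only the groups compared there was 1 for 5% prevention against FAT-MASH and 1 for 20% against 5% prevention. With all 25 libraries there were 1 for 5% prevention against FAT-MASH and 2 each for 5% and 20% on normal diet. The cause was not tested.

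Leaving out 1 library gave 2 to 4 calls for FAT-MASH against normal diet, 0 to 2 for 5% prevention against FAT-MASH, 3 to 5 for 5% therapy against normal diet, 3 to 5 for 20% against 5% therapy, 0 to 1 for 5% prevention against 5% therapy, 0 to 2 and 0 to 3 for 5% and 20% on normal diet, and 1 to 2 and 2 to 4 for the difference between diets with 5% and 20%.

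Signs turned in these cases: Hamp in 20% therapy against FAT-MASH (-0.034 and -0.026 without 20% therapy replicate 1 or 2, in a range of -0.034 to 0.36 over libraries left out), Hfe with library totals (0.12 in 20% therapy against normal diet and 0.0072 against 5% therapy), Fth1 on FAT-MASH (0.068 with library totals, 0.0093 without normal diet replicate 2, 0.017 without FAT-MASH replicate 3, in a range of -0.055 to 0.017), Ftl1 there (-0.083 without FAT-MASH replicate 2, in a range up to 0.14), Aco1 in 20% therapy against FAT-MASH (0.027 with library totals), and Hamp against Id1 (0.078 with library totals, 0.39 on deviations) and against Smad7 (0.32 on deviations). With library totals as the only scaling, the median log2 fold change of all genes was 0.20 for 20% prevention against FAT-MASH (0.01 as reported). It was 0.30 for 20% therapy against FAT-MASH (0.00) and 0.39 for 20% therapy against normal diet (0.02).

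Replicate numbers did not pair samples: deviations of same-numbered libraries had a median correlation of -0.02, over 0.1 in 6 of 45 pairs. With the replicate block, Hamp in 5% prevention (adjusted p = 0.0567) and Hfe in 20% therapy (0.0577) against normal diet lost their call, and Smad7 in 20% therapy against FAT-MASH gained one (0.0324), by edgeR. In the second batch, untreated replicates 4 and 5 share no replicate number with the mannose groups, so pairing by that number could not be checked. The names of the deposited columns do share numbers between these groups, and pairing by them was not tested.

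Over all genes, 5% prevention against FAT-MASH gave 445 calls (DESeq2 940, voom 676, no filter 1254), 5% therapy against FAT-MASH 7 (85, 4, 339; only the groups compared 1), 20% against 5% prevention 87 (635, 400, 819; library totals 137, only the groups compared 20, block 28), 5% prevention against 5% therapy 38 (358, 136, 862; only the groups compared 5, block 17), 20% prevention against 20% therapy 16 (405, 483, 702; library totals 183, only the groups compared 0, all 25 libraries 26, block 3), 5% on normal diet 0 (DESeq2 41, no filter 222, library totals 1, all 25 libraries 7), 20% on normal diet 1 (65, 6, 254; library totals 4, only the groups compared 0, all 25 libraries 32) and the difference between diets with 5% 112 (DESeq2 478, no filter 897). Library totals gave 6520 for 20% therapy against FAT-MASH (4195) and 5627 against 5% therapy (3455). Leaving out 1 library moved these totals too: 127 (without 5% prevention replicate 1) to 344 for 5% prevention against FAT-MASH, 0 to 43 (without FAT-MASH replicate 1 and 2) for 5% therapy against FAT-MASH, 1 to 179 (without 20% prevention replicate 2 and 3) for 20% against 5% prevention, 2 to 201 (without 5% therapy replicate 1 and 2) for 5% prevention against 5% therapy, 1 to 111 (the latter without 20% therapy replicate 2) for 20% prevention against 20% therapy, 1415 (without 5% therapy replicate 2) to 2509 for 5% therapy against normal diet, 2301 (without 20% therapy replicate 1) to 3308 for 20% against 5% therapy, 0 to 148 and 0 to 159 (both highest without normal diet replicate 5) for 5% and 20% on normal diet, and 19 (without 5% prevention replicate 1) to 333 and 545 (without normal diet replicate 4) to 1253 for the difference between diets with 5% and 20%. With 3 mice a group the SE of a Hamp difference was 0.24, and a difference of -0.49 did not pass.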
